A study of Bos taurus with 8 samples.

Results

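The carbonic anhydrases were followed through the liver transcriptome of Holstein bull cattle after a bout of subacute ruminal acidosis (SARA), a fall in rumen pH brought on by a high-grain diet. The family was taken as 10 named genes, CA1, CA2, CA3, CA4, CA5A, CA5B, CA8, CA12, CA13 and CA14, and every non-control probe carrying one of these gene names was used, which gave 10 probes of 15008 on the array, 1 for each gene. The genes were chosen by their names with the 4 g against 0 g differences of these arrays already known, so those differences are described here and support nothing. All animals were rumen-fistulated bulls of 5 to 6 months weighing 164 ± 14 kg. Each had 11 days of hay, 2 days of a high-grain diet that was 50% concentrate, and then hay again. The agent was egg-yolk immunoglobulin containing antibody against bacterial lipopolysaccharide, put into the rumen daily over 14 days at 0 g per head in the control group and 4 g per head in the treated group. The labels give 4 animals (19, 20, 23 and 24), and every animal contributed a 0 g array and a 4 g array, both from 2 days after the challenge. That makes 8 arrays in 4 pairs from a trial of 11 cattle; its 2 g group was not analysed here.

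Carbonic anhydrases turn carbon dioxide and water into bicarbonate and a proton, and back. CA1, CA2, CA3 and CA13 are cytosolic, CA5A and CA5B are mitochondrial, and CA4, CA12 and CA14 are held on the cell surface with the active site facing out. CA8 belongs to the family by sequence but lacks the catalytic zinc site. In hepatocytes the mitochondrial enzyme supplies bicarbonate to carbamoyl phosphate synthetase in the urea cycle and to pyruvate carboxylase in gluconeogenesis. CA2 is a classical enzyme of red blood cells and of acid- and bicarbonate-handling epithelia.

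The 10 probes lie on 6 chromosomes of the UMD 3.1 cattle assembly, to which all coordinates refer. CA2, CA3, CA1 and CA13 sit in that order within 336.667 kb of chromosome 14, from 79372519 to 79709185, and CA8 is on the same chromosome 51.7 Mb away. Each gene was read by 1 probe of 60 bases, so the probe decides what a value means. The sequences printed here are those of the probe of CA13, the member that was higher at 4 g in all 4 animals, of CA8, whose 60 bases span 8449 bases of the genome and so cross an exon junction, and of CA5B and CA12, which were not well above background on most arrays. Capitals mark the longest run of letters that a probe shares, on either strand, with another probe of the family.
CA13: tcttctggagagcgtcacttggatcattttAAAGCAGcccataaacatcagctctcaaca
CA8: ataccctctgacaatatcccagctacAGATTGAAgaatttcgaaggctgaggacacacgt
CA5B: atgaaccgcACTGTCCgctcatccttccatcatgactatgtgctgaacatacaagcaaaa
CA12: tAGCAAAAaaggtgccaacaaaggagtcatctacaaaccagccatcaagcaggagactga
The CA13 probe covers chr14:79709126-79709185, the CA8 probe chr14:27656156-27664604, the CA5B probe chrX:135024609-135024668 and the CA12 probe chr10:46768476-46768535. The files list the coordinates of the CA13, CA8 and CA5B probes in descending order and those of the CA12 probe in ascending order. Over all 10 members the longest shared run was 6 to 8 bases of 60, so the probes of different carbonic anhydrases had little sequence in common. Probes were compared with each other alone, and matches of a probe to other transcripts of the family were not tested.

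Levels are log2 of the processed spot signal minus the 75th percentile of the array, so that 0 is a bright spot for that array and most probes are negative. They compare arrays for 1 probe, and not probes with each other. The arrays shared 1 slide and 1 scan, had 64.4% to 80.4% of probes well above background (a flag set by the scanner software) and 75th percentiles between 121 and 300, the dimmest being those of animal 19 at 4 g (122) and animal 20 at 0 g (121). Liver was checked with 19 hepatocyte markers, of which 17 or 18 were well above background on each array, although the extraction protocol in the labels names rumen epithelium. The 0 g array of animal 23 stood apart: 19 of 20 markers of pancreatic acinar cells, which make digestive enzymes, were over 2 log2 units above their level on every other array. The labels of animals 23 and 24 were also in question. Of 44 probes with 2 separate levels (a gap of over 1.5 log2 units with at least 2 arrays on each side), after leaving out 156 that parted the dimmest arrays, the arrays of animal 19 fell on the same side in 40 and those of animal 20 in 38, against 21 for animal 23 and 19 for animal 24. In 33 of the 44 the 0 g libraries labelled 23 and 24 shared a side, and in 35 the 4 g libraries did. Results on pairs are therefore also given from animals 19 and 20 alone, and no member was among the 2-level probes. That check is limited, as each of these animals holds 1 of the dimmest arrays, at opposite doses.

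Of the 10 genes, 6 were well above background on all 8 arrays (CA2, CA3, CA4, CA5A, CA13 and CA14) and CA8 was on 6 arrays. These 7 passed the filter of 4 arrays. CA1 and CA5B were well above background on 2 arrays each and CA12 on 0. CA5B, the second mitochondrial enzyme, ran from −6.99 to −5.24 and was well above background on both arrays labelled animal 23 alone, where its levels were −5.71 at 0 g and −5.24 at 4 g. CA12, a surface enzyme of secretory epithelia, ran from −7.98 to −6.21 and was not well above background on any array. Among the other carbonic anhydrase names on the array, LOC784254, CA6, CA7, CA9 and CA10 did not pass the filter, and CA11, a catalytically inactive relative, stood at −3.59 ± 0.62 at 0 g and −4.04 ± 0.31 at 4 g (SD, n = 4).

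With all 8 arrays, the 7 measured carbonic anhydrases of the list all had a higher mean at 4 g than at 0 g, by 0.04 (CA8) to 0.89 (CA3) on the log2 scale. CA11, which passed the filter but is not on the list, went the other way. It differed by −0.45 (SE 0.26) and was higher at 4 g in 0 of 4 animals. Over the 10985 probes tested, 53.6% had a difference above 0. The median of the 7 was 0.34, beside 0.02 over all tested probes. No member passed limma's paired test after Benjamini-Hochberg adjustment, and neither did any other probe (0%). At an unadjusted p under 0.05, limma had 121 probes, of which 84 were lower and 37 higher at 4 g; the higher ones are 0.337% of those tested and include 2 members, CA3 and CA13. As the family was named with this contrast in view, nothing is read from these counts. The dose groups of each of the 7 genes overlapped. In animals 19 and 20 alone 5 of the 7 were higher at 4 g, none of them at an unadjusted p under 0.05 in limma. The median of the 7 there was again 0.34, beside 0.0002 over all tested probes. Within single animals the median of the 7 was 0.12 in animal 19, 0.57 in animal 20, 0.80 in animal 23 and 0.06 in animal 24, with 4, 5, 6 and 4 genes higher. Over all tested probes the medians were 0.08 in animal 19, −0.06 in animal 20, −0.01 in animal 23 and 0.09 in animal 24. In animal 24 the members were thus not above the median of all probes, and in animal 19 they were little above it.

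**Figure D1:**
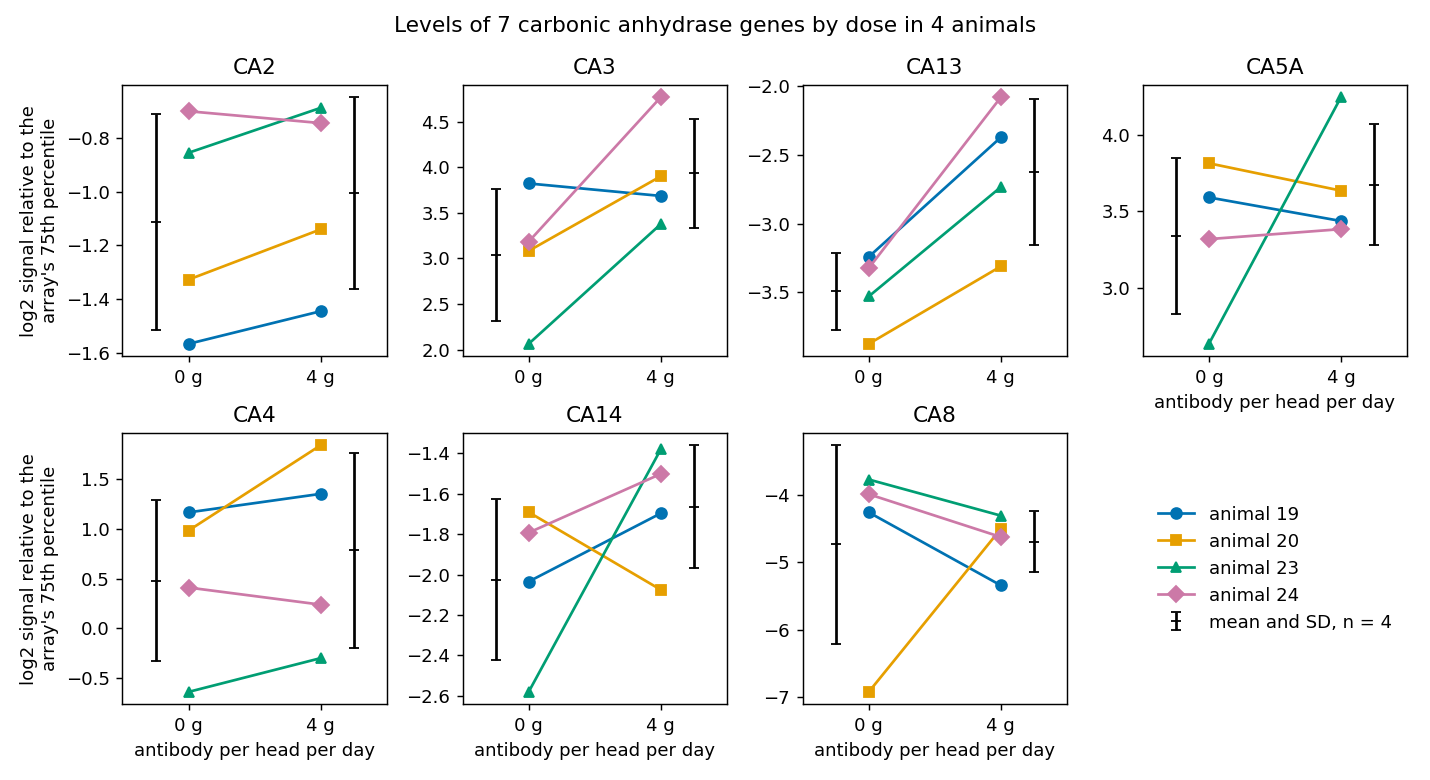
Levels of the 7 measured carbonic anhydrases (log2 signal relative to the array's 75th percentile) at 0 g and 4 g, 1 line per animal, with black bars for the mean and SD of 4 animals per dose; the vertical scale differs between genes. CA13 goes up in all 4 animals, CA2, CA3, CA4 and CA14 in 3, CA5A in 2 and CA8 in 1.

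CA13, a cytosolic enzyme, was the only one of the 7 that was higher at 4 g in every animal, as were 2.92% of all tested probes. From 0 g to 4 g its level went from −3.24 to −2.37 in animal 19, from −3.88 to −3.31 in animal 20, from −3.53 to −2.73 in animal 23 and from −3.32 to −2.08 in animal 24. The highest control array, that of animal 19, was just above the lowest treated array, that of animal 20, and apart from this the groups were separate. The means were −3.49 ± 0.28 at 0 g and −2.62 ± 0.53 at 4 g (SD, n = 4), a difference of 0.87 (SE 0.23, 95% interval 0.31 to 1.43), or 1.83-fold. It was 0.72 in animals 19 and 20 alone. The spots were dim, with processed signals of 8.26 to 51.4. With normexp background correction, which also added an offset of 50 to every signal, the difference was 0.06; the parts of the correction and of the offset in this were not tested. In animal 19 the signal itself was 24.8 at 0 g and 23.5 at 4 g, and the higher level at 4 g follows from dividing by a 75th percentile of 122 in place of 235.

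CA3, the cytosolic carbonic anhydrase that is abundant in liver, muscle and fat, was higher at 4 g in 3 of 4 animals. Animal 19 had 3.82 without and 3.69 with the antibody, animal 20 had 3.08 and 3.90, animal 23 had 2.06 and 3.38, and animal 24 had 3.18 and 4.77. The control array of animal 23 was the lowest and the treated array of animal 24 the highest, and the groups overlapped, the control array of animal 19 lying above the treated arrays of animals 19 and 23. The means were 3.04 ± 0.73 and 3.93 ± 0.60 (SD, n = 4), differing by 0.89 (SE 0.33, 95% interval 0.09 to 1.70). The difference was 0.34 in animals 19 and 20 alone, 1.45 in the arrays labelled 23 and 24, and 0.57 without the 0 g array of animal 23 in an unpaired fit. CA3 spots were bright, and normexp correction left the difference at 0.92. In bulk liver, a change in the number of cells of a type and a change in RNA per cell cannot be told apart. Muscle and fat also make CA3. Skeletal muscle had 4 tested markers, all with lower means at 4 g (median −0.36), from −1.65 for ACTA1 to −0.26 for TCAP. Fat had 7, of which 5 were lower (median −0.32), from −2.45 for FABP4 to 0.39 for CIDEC. The part of these tissues in the CA3 difference was not tested.

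CA2, the fast cytosolic isoform, hardly differed between doses. Its levels at 0 g and 4 g were −1.57 and −1.45 in animal 19, −1.33 and −1.14 in animal 20, −0.85 and −0.69 in animal 23, and −0.70 and −0.74 in animal 24. The spread was between animals rather than within them, with animals 19 and 20 low and animals 23 and 24 high. The dose difference was 0.11 (SE 0.21, 95% interval −0.41 to 0.62) over all animals, 0.15 in animals 19 and 20 alone and −0.04 with normexp correction and its offset.

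CA5A, the mitochondrial enzyme of liver, measured 3.59 without and 3.44 with the antibody in animal 19, 3.81 and 3.64 in animal 20, 2.64 and 4.24 in animal 23, and 3.32 and 3.38 in animal 24. A single pair, animal 23, held both the lowest and the highest array, and the other 3 pairs differed by less than 0.2. The means were 3.34 ± 0.51 and 3.68 ± 0.39 (SD, n = 4), with a difference of 0.34 (SE 0.36, 95% interval −0.54 to 1.21). Without animal 23 it was −0.09, and in animals 19 and 20 alone it was −0.17. Enzymes that use bicarbonate were tested as a list of carboxylases, which also holds the cytosolic ACACA and CAD. Of these, 5 of 7 had higher means at 4 g and 2 lower, with a median of 0.05. In limma's test 0 passed at an adjusted or an unadjusted p under 0.05. CPS1, the urea cycle entry enzyme, differed by 0.05 (SE 0.31), pyruvate carboxylase (PC) by −0.05 (SE 0.22), and MCCC1, a subunit of the leucine-degrading carboxylase, by 0.43 (SE 0.24).

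Of the surface enzymes, CA4, which is anchored to the membrane by a lipid, gave 1.17 without and 1.35 with the antibody in animal 19, 0.98 and 1.84 in animal 20, −0.64 and −0.30 in animal 23, and 0.41 and 0.24 in animal 24. Animals again differed more than doses, in the opposite order to CA2. The dose difference was 0.30 (SE 0.26, 95% interval −0.32 to 0.92), 0.52 in animals 19 and 20 alone and 0.29 in the paired fit without animal 23. It was −0.07 when the 0 g array of animal 23 alone was left out, a fit without the pairing that kept the 4 g array of an animal low in CA4. CA14, a transmembrane enzyme, gave −2.03 and −1.70 in animal 19, −1.69 and −2.08 in animal 20, −2.58 and −1.38 in animal 23, and −1.79 and −1.50 in animal 24. Its lowest and highest arrays were again the 2 of animal 23. Its difference of 0.36 (SE 0.31, 95% interval −0.38 to 1.1) was −0.02 in animals 19 and 20 alone.

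CA8, the acatalytic member, was higher at 4 g in 1 animal. It gave −4.26 and −5.34 in animal 19, −6.92 and −4.51 in animal 20, −3.78 and −4.31 in animal 23, and −3.99 and −4.63 in animal 24. The dimmest arrays of the series, animal 20 at 0 g and animal 19 at 4 g, were the only ones not well above background for this probe. The difference was 0.04 (SE 0.59, 95% interval −1.38 to 1.46) over all animals, −0.75 without animal 20 and 0.67 in animals 19 and 20 alone.

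**Figure D2:**
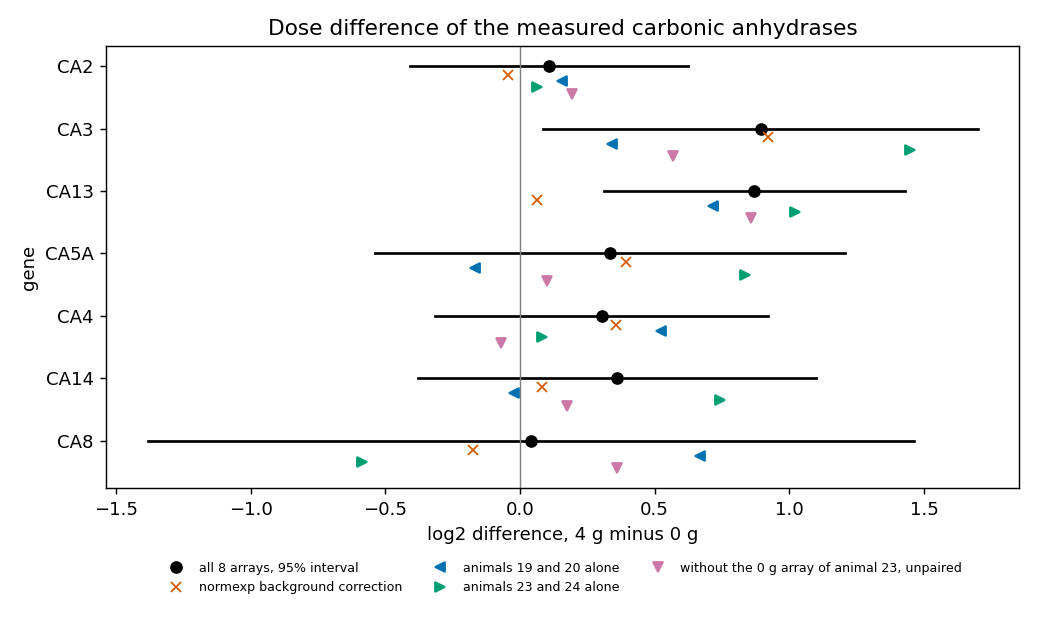
Difference between 4 g and 0 g for the 7 measured carbonic anhydrases on the log2 scale, with the paired estimate from 8 arrays (black, 95% interval) and the same estimate under 4 other settings (coloured). The CA13 estimate falls from 0.87 to 0.06 with normexp correction and its offset of 50, and that of CA5A lies below 0 in animals 19 and 20 alone.

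The 0 g array of animal 23, with its pancreatic transcripts, was the lowest of the 8 for CA3, CA4, CA5A and CA14. The acinar markers averaged 5.59 on that array and between −5.54 and −3.80 on the others, where 5 to 15 of the 20 were well above background. Hepatocyte markers averaged 4.01 on it, the lowest of the 8 but close to the range of 4.03 to 4.39 on the others. The part of the pancreatic RNA in the carbonic anhydrase differences was not tested beyond leaving arrays out. Without both arrays of animal 23, the paired fit gave 0.75 for CA3, 0.29 for CA4, −0.09 for CA5A, 0.08 for CA14 and 0.89 for CA13. Without the 0 g array alone, in a fit that also dropped the pairing, the values were 0.57 for CA3, −0.07 for CA4, 0.10 for CA5A, 0.18 for CA14 and 0.86 for CA13.

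The differences between animals were not used to choose the genes. When limma's moderated F-test asked whether animals differed, no member passed after Benjamini-Hochberg adjustment, and 0 of the 10985 probes did (0%). At an unadjusted p under 0.05 there were 301 probes, 2.74% of those tested, and 1 of the 7 members, CA4 (unadjusted p = 0.005, adjusted p = 0.985 in limma). Animals 19 and 20 were on 1 row of the slide and animals 23 and 24 on the other, so this pair of animals and the slide row cannot be told apart. Between these pairs, a division chosen after the values were seen, CA2 and CA4 did not overlap, and neither did 9.6% of all tested probes. CA2 was 0.63 higher on the 4 arrays of animals 23 and 24 (−0.85 to −0.69) than on those of animals 19 and 20 (−1.57 to −1.14). CA4 ran the other way, −0.64 to 0.41 against 0.98 to 1.84, a difference of −1.41. The division does not need the labels of animals 23 and 24 to be told from each other. With normexp correction CA4 stayed apart (−1.04) and CA2 overlapped (0.17), and with quantile normalization both stayed apart (0.63 for CA2, −1.43 for CA4).

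**Figure D3:**
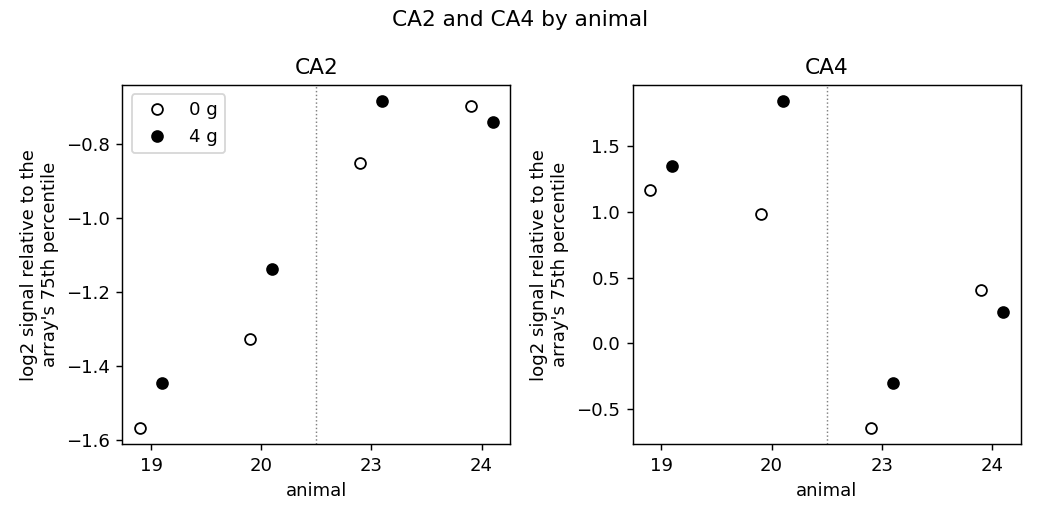
Levels of CA2 and CA4 (log2 signal relative to the array's 75th percentile) in each animal, open circles at 0 g and filled circles at 4 g; the dotted line parts the slide rows. CA2 lies at −1.14 or below in animals 19 and 20 and at −0.85 or above in animals 23 and 24, and CA4 lies in the reverse order.

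CA1, a cytosolic enzyme known from gut epithelium, was well above background in animal 19 alone. There it reached −0.51 at 0 g (signal 165) and −3.95 at 4 g (signal 7.88). In the other animals it was not well above background, at −6.60 and −7.62 in animal 20, −6.74 and −8.10 in animal 23, and −7.14 and −7.67 in animal 24. A gene seen in 1 animal gives no comparison of doses. On the 0 g array of animal 19, CA1 stood 3.44 above the next highest array, the fifth widest such margin of all 15008 probes, of which 16 (0.107%) stood over 2 above. The genes with the wider margins were A2ML1, a protease inhibitor of skin (4.67), the serpin SERPINB4 (4.42), the epidermal keratin KRT6A (4.32) and the gap junction protein GJB6 (3.55), and the keratin KRT6C (3.26) followed. These genes were picked out for their values on this array.

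Other cell types were checked by marker lists. Of 22 squamous and rumen epithelium markers, 12 were well above background on the 0 g array of animal 19 and 8 to 10 on each other array, and 3 (A2ML1, KRT6A and KRT6B) were over 2 above all others there. The mean of that list was −4.58 on this array, −5.06 on the 4 g array of the same animal and −6.13 to −5.10 elsewhere. Of the 22, 9 passed the filter of 4 arrays, so this mean rests largely on spots not well above background. Such spots can read higher on dim arrays. TP63, the master regulator of squamous epithelium, was not well above background on any array. It stood at −6.85 and −6.67 on the dimmest arrays (4 g of animal 19 and 0 g of animal 20) and at −8.11 to −7.56 on the others. Erythroid markers averaged −4.70 and −4.47 on the arrays of animal 19, within the range of −5.35 to −4.15 on the other arrays. SLC4A1, the bicarbonate exchanger of red cells, was not well above background on any array. HBA, AHSP, GYPC, EPOR, TFRC and ANK1 of the same list were well above background on all 8. Of the 19 erythroid markers 9 passed the filter, and cell content is not read from either mean. Of 20 skeletal muscle markers, 9 were well above background on the 0 g array of animal 19. The count was 11 on the 0 g array of animal 23 and 3 to 5 on each other array. SLC26A3, the chloride-bicarbonate exchanger of gut epithelium, was well above background on the 0 g array of animal 19 alone, at −3.91, with −5.81 on the 4 g array of that animal. The part of epithelial or muscle RNA in the CA1 level was not tested.

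**Figure D4:**
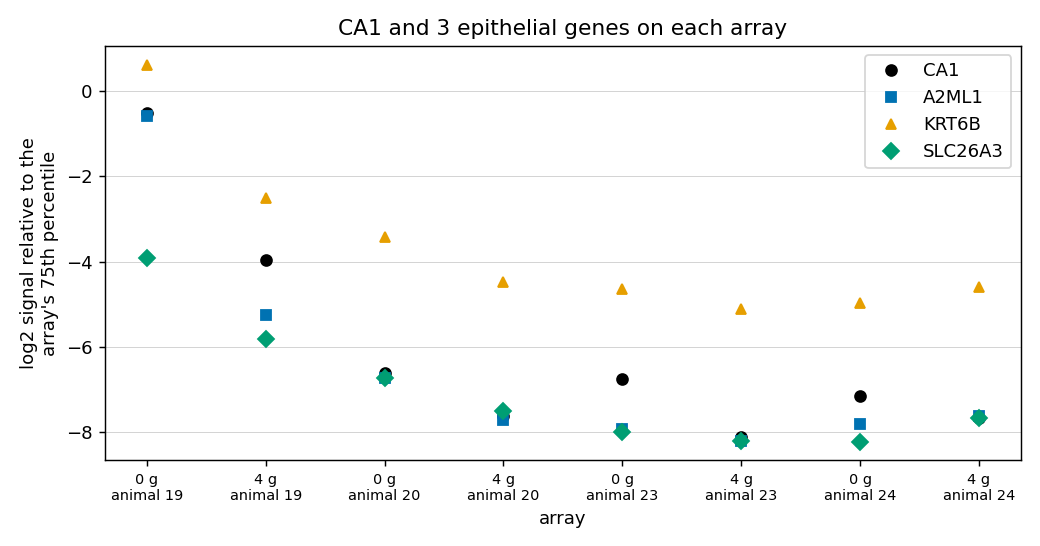
Levels of CA1, A2ML1, KRT6B and SLC26A3 (log2 signal relative to the array's 75th percentile) on each of the 8 arrays; points of different genes show where each gene is high, not which gene is higher. All 4 genes are highest on the 0 g array of animal 19 and next highest on its 4 g array. A2ML1, KRT6B and SLC26A3 were picked after their values were seen, so their likeness to CA1 is no separate result. A2ML1 and SLC26A3 were well above background on 1 array each, so their second rank rests on spots not well above background.

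The partners that move bicarbonate and protons showed no called difference between doses. Of 15 bicarbonate transporters on the array 6 were tested, with 2 higher and 4 lower means at 4 g and a median of −0.15. SLC4A2, the anion exchanger of bile duct and other epithelia, differed by −0.64 (SE 0.35), and CFTR, the chloride and bicarbonate channel, by −0.40 (SE 0.34). Of 24 proton transporters 15 were tested, with 6 higher, 9 lower and a median of −0.01; ATP4A, the gastric proton pump subunit, had the widest difference, 0.34 (SE 0.56). In limma, 0 genes of either list passed at an adjusted p under 0.05, nor did any at an unadjusted p under 0.05.

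Across the 8 arrays, which come in pairs from 4 animals and share scaling and dose, the members had few common patterns. CA3 and CA13, with CA1 between them on chromosome 14, had a Pearson r of 0.68 (0.70 without the 0 g array of animal 23). CA2, next to CA3 in the same stretch, had −0.11 with CA3 and 0.20 with CA13. CA2 and CA4 ran against each other at −0.73. CA5A and CA14 had 0.76, which was 0.39 without the 0 g array of animal 23. These are descriptions over 8 arrays, or 7 where 1 was left out.

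The genes whose levels followed each member most closely over the 8 arrays, among all tested probes, are also descriptions. For CA3 they were WRNIP1 (r = 0.96), CYP1A1 (0.95) and FN3KRP (0.94), and for CA13 they were MRPS31 (0.97), ERAP2 (0.95) and TNC (0.94). CA2 was followed by EIF4A2 (0.97), the MHC class II gene BOLA-DQB1 (0.96) and GABRB1 (0.95). CA4 was followed by TTC22 (0.95), CHIA (0.93) and LGALS2 (0.93). CA5A went with CAMLG (0.97), NARF (0.92) and UBQLN1 (0.91), and CA14 with HAO1 (0.97), DEFB5 (0.95) and PYGL (0.94). GABRB1 was well above background on 4 of the 8 arrays, DEFB5 on 6 and TTC22 on 7, and the other genes named here on all 8.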

How the data were processed

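Per the file headers, spot intensity was read with Agilent Feature Extraction 11.0.1.1 as background-subtracted processed signal, while the submitters' processing notes name version 9.5. The log2 values of the deposited table of the series, made by the authors and centred near the 75th percentile, served as an alternative. From the processed signal of 15646 features per array, 536 controls and 48 outlier spots were left out, log2 was taken, and the 75th percentile over 15008 probes was subtracted. Probes well above background on at least 4 arrays (10985) entered a 2-sided linear model with the animal as block (R 4.3.3, limma version 3.58.1, moderated by eBayes, Benjamini-Hochberg over all tested probes), read with data.table (version 1.17.8); Python 3.11.15 and pandas 2.3.3 made the tables. The fit was run on simulated data with known changes, correct pairing and independent noise. That run does not test the labels, the dim arrays or the pancreatic RNA. The pairing rests on the animal numbers in the titles and the Latin square design. Deviations of the 2 arrays of an animal correlated at −0.19 in animal 19, −0.18 in animal 20, 0.21 in animal 23 and 0.13 in animal 24. The lower values are thus in the animals whose arrays the 2-level probes kept together. The period of each dose is not in the labels. Current gene names came from a RefSeq gene list of ARS-UCD2.0 by accession (11194 probes), symbol (3085) or synonym (44). The members, the gene lists (13 in all) and the marker lists were chosen with earlier results of these data known. Named genes are all members, all other carbonic anhydrases on the array, up to 3 tested genes per list by absolute difference where a result turns on it, and 3 genes per member by correlation; SLC26A3, SLC4A1, TP63, CPS1, PC, TCAP and CIDEC and the genes of the 0 g array of animal 19 were singled out after their values were seen. The remaining lists gave medians of 0.03 for hepatocyte (18 tested), −0.02 for erythroid (9), −2.67 for pancreatic acinar (10), −0.16 for duct (15), −0.29 for squamous (9), −0.17 for endothelial (18) and −0.34 for smooth muscle markers (13). Alternatives were other backgrounds, scalings, filters, variance models and left-out animals or arrays. The number of arrays limits the precision.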

Additional observations from a re-analysis of the deposited data

Results flagged for a closer look

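Among 20 sets of 4 arrays (10 genes at each dose), 4 had a single array far from the other 3. The nominal rate of this rule is about 1 of 20 sets. The share over all probes was not taken, and the sets share arrays, so nothing about the family is read from the count. CA1 at 0 g was −0.51 in animal 19, and CA1 at 4 g was −3.95 in the same animal; both spots were well above background. CA8 at 0 g was −6.92 in animal 20, and CA12 at 4 g was −7.82 in animal 20; both spots were not well above background.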

How the results depend on the processing

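Over 17 alternatives the count of probes past the adjusted threshold for dose stayed at 0 in 16 and was 5 in the fit that left out the 2 dimmest arrays and also dropped the pairing, of which the cause was not tested; leaving out each animal gave 0 to 0. The median of the 7 measured carbonic anhydrases, 0.34, was above 0 in all 17, from 0.08 with normexp correction (offset 50) to 0.74 in animals 23 and 24 alone, and 0.23 to 0.51 with each animal left out; 5 to 8 members were higher, of 6 to 10 tested. Without the animal as a replicate block the pairing was dropped, the median was again 0.34, 0 probes passed, and 1 member in place of 2 had an unadjusted p under 0.05. The count between animals was 0 in 11 of 12 alternatives and 1 without animal 19, a range of 0 to 1 with each animal left out. The 121 probes at an unadjusted p under 0.05 became 16 in animals 19 and 20, 17 with normexp, 454 in animals 23 and 24, 360 with array weights, 191 with no filter, 309 without the 2 dimmest arrays and 50 without the 0 g array of animal 23 (both without the pairing), and 58 to 406 with each animal left out. The CA13 difference ran from 0.06 (normexp) to 1.02, and CA2 was −0.04 with normexp. The CA8, CA5A, CA4 and CA14 differences changed sign under some alternatives, with ranges of −0.75 to 0.67, −0.17 to 0.84, −0.07 to 0.52 and −0.02 to 0.74; the CA3 difference stayed above 0 (0.34 to 1.45). Dim spots limit CA13, CA8, CA1, CA5B and CA12, and 4 animals limit every dose difference.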
